A study of Homo sapiens with 48 samples.

Results

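The genes described here were those for the heterogeneous nuclear ribonucleoproteins (hnRNPs), the numbered RBM (RNA-binding motif) proteins and Quaking (QKI). Members were chosen by symbol: HNRNP followed by a letter, RBM followed by a number, or QKI. Left out were pseudogene names, read-through names with a hyphen and an item that is not reported here. They came to 55 of the 14685 genes in the count tables, with 21 hnRNP genes, 33 RBM genes and QKI, and all 55 passed the filter on low counts. RNA-seq was done on HEK293T cells, a human embryonic kidney line, of wild-type genotype, which had been transfected with a plasmid for Halo-tagged NCBP1, the larger of the cap-binding proteins of the nucleus. In the T-REX arm the cells were loaded with Ht-PreHNE, a photocaged precursor that binds Halo, and exposed to light, which releases the lipid-derived electrophile HNE (4-hydroxynonenal) beside NCBP1. The 3 technical controls were light alone, probe alone (Ht-PreHNE without light) and DMSO vehicle. The labels give the first of these as a UV control only, while the methods of the study list Ht-PreHNE for it as well, so whether its cells held the probe is uncertain. RNA was taken at 3, 6 and 12 h, with 4 biological replicates per arm and time, which gave 48 libraries.

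hnRNPs coat nascent transcripts in the nucleus, where they take part in splice-site choice, RNA export and RNA stability, and several are among the most abundant nuclear proteins. Many RBM proteins are subunits of the spliceosome or regulators of exon choice, and RBM8A (Y14) belongs to the exon junction complex, which is left on mRNA after splicing. QKI is a STAR-family protein whose KH domain recognises ACUAA-type sites, and it is known for its part in exon choice, circular RNA formation and RNA stability. NCBP1, the target of the reaction, binds the cap of the same nascent transcripts together with NCBP2. Genes for such proteins often regulate their own or each other's splicing, so that their RNA levels, which are what was measured here, need not follow their protein levels.

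The libraries held 23952455 to 37099535 counts. NCBP1 took 3.09 to 8.99% of the counts of a library, in which RNA from the plasmid and from the gene cannot be told apart. Its share differed between arms. At 12 h it was 5.42 to 6.56% in T-REX and 5.41 to 7.53% in probe alone, but 3.60 to 5.07% in light alone and 3.09 to 4.18% in DMSO. The nuclear RNAs MALAT1 and NEAT1 together took 0.734 to 0.789% of counts in T-REX at 12 h and 0.707 to 0.790% in probe alone, against 0.619 to 0.662% in light alone and 0.604 to 0.646% in DMSO. Of the markers chosen for HEK293T, VIM (437 to 668 CPM, read counts scaled to equal library size), KRT18 (7.14 to 13.4) and KRT8 (4.39 to 10.4) were present, and PAX2 had no row in the tables. Of 10 markers of blood, fibroblast and endothelial cells, COL1A1 alone had a row, at 2.13 to 6.07 CPM. In bulk RNA, fewer cells of a type and less RNA per cell cannot be told apart.

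Levels of the members spanned a wide range. On the scale of CPM per kilobase of exon, the mean over the 12 control libraries at 3 h was 434 times higher for the most abundant member than for the least abundant one. HNRNPA1, a core hnRNP that binds splicing silencers, stood at 141 ± 15.0 (SD, n = 12), HNRNPH2, which binds guanine runs, at 141 ± 13.8, and HNRNPC, which binds uridine runs in introns, at 134 ± 4.80. On this scale these 3 overlapped each other and lay above all other members in every control library. The exon length counted every annotated exon base of a gene, 22512 for HNRNPU and 2223 for HNRNPH2, so the order depends on the annotation. Before division by length, the mean was 1528 CPM for HNRNPU, 979 for HNRNPC, 754 for HNRNPH1, 719 for HNRNPA1 and 313 for HNRNPH2. Within the RBM genes, RBM3, a cold-inducible RNA-binding protein, led on the scale per kilobase at 87.2 ± 6.54. It was followed by RBM26, a zinc-finger protein that links nuclear RNA to the exosome, at 80.2 ± 3.39. RBM22 of the activated spliceosome stood at 52.1 ± 3.05, RBM15 of the m6A methyltransferase complex at 42.2 ± 1.57, and HNRNPU, the scaffold attachment factor, at 67.9 ± 2.74. QKI was the 30th of 55, at 17.8 ± 0.83, next to RBM33 (19.6 ± 0.76) and RBM12B (17.8 ± 0.66). The lowest members of each role were HNRNPA1L2 (3.31 ± 0.69), HNRNPLL (8.02 ± 0.32), HNRNPH3 (25.2 ± 0.87), HNRNPUL2 (5.41 ± 0.58), RBM17 (6.13 ± 0.33), RBM47 (0.36 ± 0.06) and RBM43 (0.33 ± 0.09). In this order 50 of the 54 neighbouring pairs overlapped in their ranges. The other 4 gaps came after HNRNPC, HNRNPA2B1, HNRNPDL and HNRNPA1L2. Exons shared with another gene on the same strand made up over 10% of the exon length of 6 members (RBM34, RBM27, HNRNPUL2, RBM4, HNRNPH2 and RBM14), and members with near-identical copies, such as HNRNPA1 and HNRNPA1L2, may have shared reads. Their levels are less certain than the others.

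**Figure D1:**
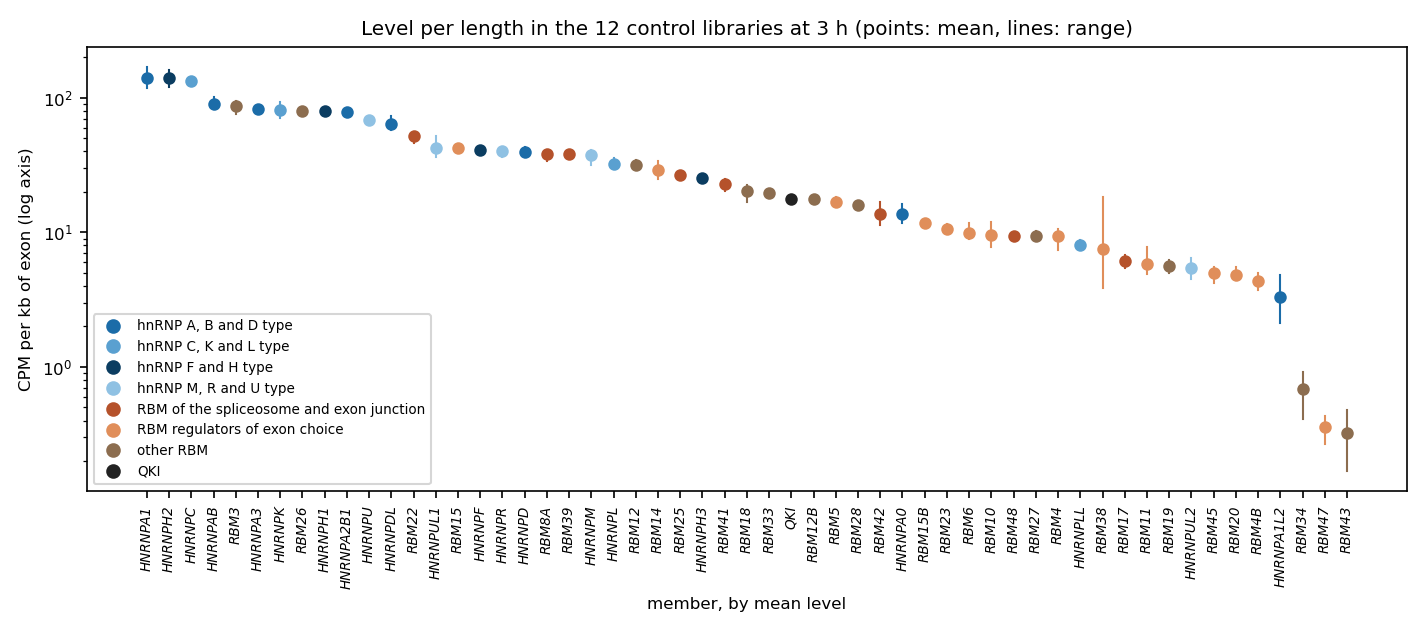
Mean level of each of the 55 members over the 12 control libraries at 3 h (points, colored by role) with its range (lines), in CPM per kilobase of exon on a log axis, members ordered by mean. On this scale, which depends on the annotated exon length, HNRNPA1, HNRNPH2 and HNRNPC are highest, at 134 to 141. RBM47 and RBM43 are lowest, at 0.36 and 0.33.

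At 3 h, QKI was lower in T-REX than in light alone and DMSO. Its level was 279, 271, 248 and 263 CPM in the 4 T-REX libraries, 308, 320, 324 and 295 in light alone, 295, 313, 289 and 287 in probe alone, and 326, 328, 315 and 312 in DMSO. All 4 T-REX libraries lay below all 12 control libraries. The log2 change was -0.23 ± 0.05 (SE) against light alone (edgeR quasi-likelihood test, adjusted p = 0.037) and -0.27 ± 0.05 against DMSO (adjusted p = 0.0028), and it was -0.14 ± 0.05 against probe alone (adjusted p = 0.11), which did not pass the threshold of 0.05. QKI was therefore the 1 member that was significantly differentially expressed (SDE) at 3 h under the rule of the study, calls of 1 sign against 2 or more of the 3 controls, which 0.947% of all genes met. The study itself names QKI among its top-ranked SDE genes, under mRNA biogenesis and translation, so that QKI is SDE was not new. The passage that names it gives no time, direction or control for QKI. The QKI call against DMSO was kept without any 1 of the 16 libraries. Its call against light alone did not hold (log2 change -0.22 to -0.24, adjusted p 0.051 to 0.17) once T-REX replicate 2 or 4 was left out, nor without light alone replicate 1, 2 or 3, probe alone replicate 1 or 3, or DMSO replicate 1, 2 or 4. It was also lost with only the 2 arms in the fit (adjusted p = 0.30) and with genes under a mean of 100 counts left out (adjusted p = 0.054). Against probe alone, QKI was called in 2 of 8 other settings. These were DESeq2 and the fit with factors of unwanted variation as covariates. The share of counts from NCBP1 at 3 h was 5.85 to 8.99% in T-REX, 5.56 to 6.97% in light alone, 5.91 to 6.73% in probe alone and 4.56 to 6.10% in DMSO, and its part in the QKI result was not tested.

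At the later times the QKI libraries of T-REX no longer lay below every control. At 6 h its level was 325, 321, 337 and 313 CPM in T-REX, 373, 324, 453 and 323 in light alone, 343, 331, 363 and 331 in probe alone, and 338, 347, 327 and 351 in DMSO. T-REX overlapped every control, and the log2 changes were -0.19 ± 0.08, -0.08 ± 0.08 and -0.07 ± 0.08 against light alone, then probe alone and vehicle in turn (adjusted p = 0.35, 0.92 and 0.77). At 12 h it was 331, 331, 315 and 314 CPM in T-REX, 343, 348, 324 and 329 in light alone, 328, 306, 302 and 329 in probe alone, and 346, 363, 470 and 348 in DMSO. T-REX then lay below DMSO (log2 change -0.24 ± 0.07, adjusted p = 0.030), overlapped light alone and probe alone, and differed from these by -0.06 ± 0.07 and 0.03 ± 0.07. Without DMSO replicate 3, the library at 470 CPM, the log2 change against DMSO was -0.12 (adjusted p = 0.063). Leaving out T-REX replicate 1, 3 or 4 ended the call too, with the change at -0.23 to -0.25 and the adjusted p at 0.063 to 0.078. The test of the difference between times, T-REX against the mean of the controls at 12 h minus that at 3 h, gave 0.13 ± 0.08 (adjusted p = 0.57) for QKI, so that a change of its effect with time was not shown.

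RBM8A, the Y14 subunit of the exon junction complex, was the SDE member at 12 h. Its level was 128, 138, 137 and 132 CPM in T-REX, 153, 158, 161 and 154 in light alone, 147, 153, 149 and 140 in probe alone, and 154, 162, 161 and 149 in DMSO. The T-REX libraries were below every control library. The log2 change was -0.23 ± 0.05 against light alone (adjusted p = 0.011), -0.23 ± 0.05 against DMSO (adjusted p = 0.0034) and -0.14 ± 0.05 against probe alone (adjusted p = 0.21). Of all genes, 1.4% were SDE at 12 h. The SDE members became 4 without probe alone replicate 4, 2 without DMSO replicate 1 and 3 without DMSO replicate 3. Against light alone the RBM8A call did not hold without T-REX replicate 1 (-0.20, adjusted p = 0.082) or light alone replicate 3 (-0.21, adjusted p = 0.064), and that against DMSO was kept without any 1 library. At 3 h RBM8A stood at 201, 204, 202 and 192 CPM in T-REX, 213, 224, 208 and 219 in light alone, 227, 228, 219 and 209 in probe alone, and 206, 214, 189 and 210 in DMSO. There T-REX was below light alone and probe alone but overlapped DMSO, and the log2 changes of -0.12 ± 0.05, -0.13 ± 0.05 and -0.03 ± 0.05 did not pass (adjusted p = 0.23, 0.13 and 0.72). At 6 h the levels were 176, 178, 186 and 160 CPM in T-REX, 191, 205, 188 and 192 in light alone, 186, 186, 178 and 183 in probe alone, and 168, 177, 166 and 172 in DMSO, with no call. The change of its effect from 3 h to 12 h was -0.10 ± 0.05 (adjusted p = 0.47).

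**Figure D2:**
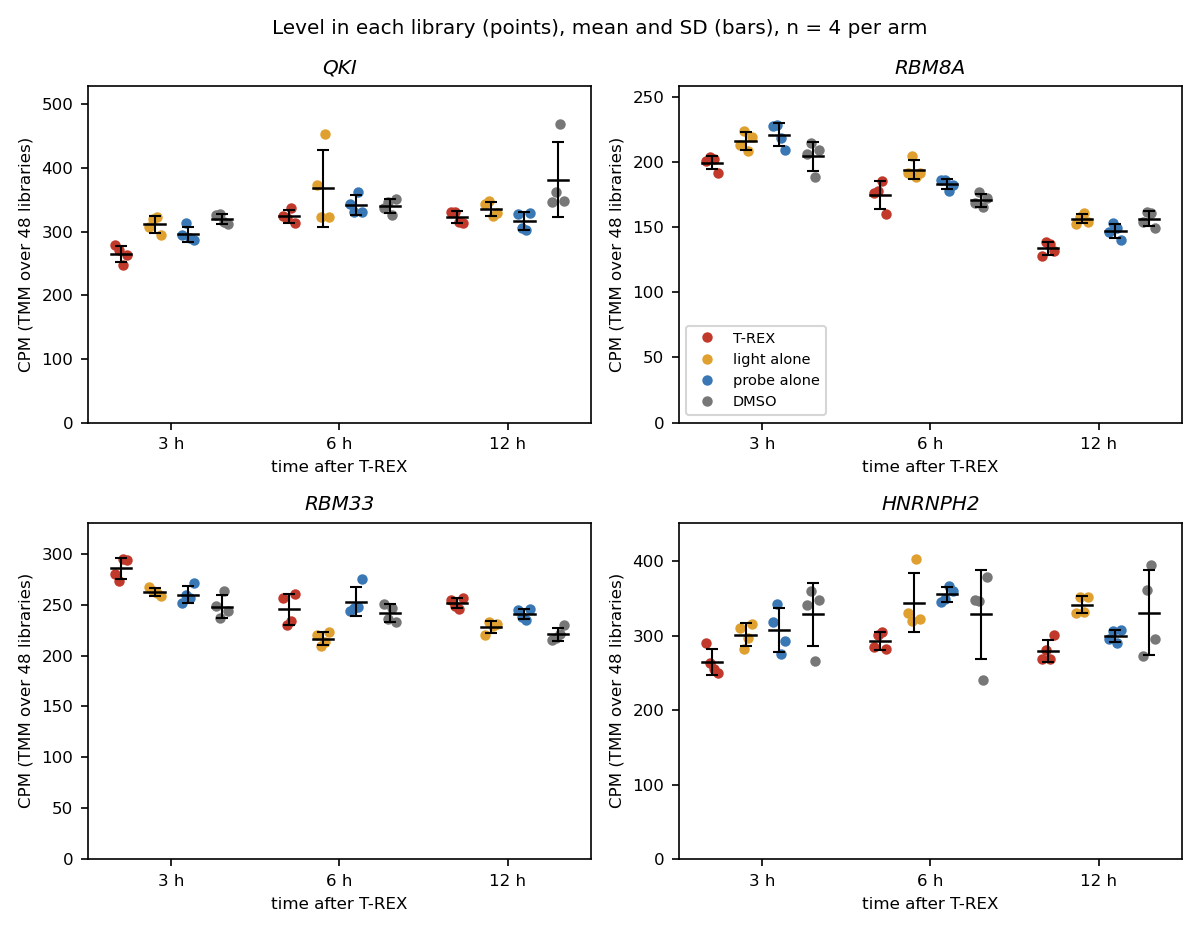
Level of QKI, RBM8A, RBM33 and HNRNPH2 in CPM (y axis, from 0) in each library at 3, 6 and 12 h (x axis), by arm (colors), with the mean and SD of 4 libraries as bars. At 3 h the QKI libraries of T-REX, at 248 to 279 CPM, lie below all controls, and at 12 h the RBM8A libraries of T-REX, at 128 to 138 CPM, do so; HNRNPH2 spreads widely in DMSO.

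Beside QKI, 6 members were called at 3 h, all against DMSO. Against DMSO the 7 calls (12.7% of the members) comprised 2 higher and 5 lower members, with 5.99% of all genes called, 1.45% higher and 4.54% lower. Against light alone QKI was the only call (0.197% of all genes), and against probe alone there was none (1.05% of all genes) by edgeR, with 8 members at an unadjusted p under 0.05 and 3 called by DESeq2. Against probe alone 1 member was called without T-REX replicate 3, and against light alone RBM22 was called beside QKI without T-REX replicate 1, light alone replicate 4, probe alone replicate 2 or DMSO replicate 3. The median log2 change of the 55 members was near 0 in each of these comparisons, at 0.004 for light alone, -0.02 for probe alone and 0.01 for DMSO, beside 0.001, 0.02 and 0.03 over all genes.

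The hnRNPs called at 3 h were 3 of the 4 of the F and H type, which bind guanine runs near splice sites. All 3 were lower than in DMSO, beside 4.54% of all genes, and their calls share the same 4 DMSO libraries. A difference between types was not tested. HNRNPF was 116, 121, 121 and 117 CPM in T-REX, 127, 133, 132 and 124 in light alone, 132, 135, 138 and 124 in probe alone, and 140, 135, 138 and 134 in DMSO. T-REX was below every control library, and the log2 change against DMSO was -0.20 ± 0.05 (adjusted p = 0.014). HNRNPH1 was 714, 705, 662 and 670 CPM in T-REX against 805, 803, 701 and 795 in DMSO, with 739 to 752 in light alone and 714 to 766 in probe alone. HNRNPH2 was 290, 263, 256 and 250 CPM in T-REX against 341, 360, 266 and 348 in DMSO, with 282 to 316 in light alone and 276 to 343 in probe alone. DMSO replicate 3 was the lowest library of its arm for both and fell within the T-REX range, and the log2 changes were -0.17 ± 0.05 for HNRNPH1 (adjusted p = 0.0305) and -0.31 ± 0.08 for HNRNPH2 (adjusted p = 0.0297). The HNRNPF call was lost without DMSO replicate 1 (-0.19, adjusted p = 0.056). Those of HNRNPH1 and HNRNPH2 did not hold when T-REX replicate 2, 3 or 4 was left out, or DMSO replicate 1, 2 or 4, with changes of -0.15 to -0.18 and -0.27 to -0.30 and adjusted p of 0.051 to 0.11 and 0.067 to 0.10. HNRNPH3, the shorter paralog, changed by -0.02 against DMSO and had no call. Against light alone and probe alone, the log2 changes of HNRNPF, HNRNPH1 and HNRNPH2 at 3 h were -0.09 to -0.20. None was called by edgeR with the arm as the only term, and DESeq2 called HNRNPF against probe alone. With the factors of unwanted variation as covariates, HNRNPH1 was called against light alone, and HNRNPF and HNRNPH2 against probe alone.

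Among the RBM genes, RBM33, a partner of the m6A demethylase ALKBH5, was higher in T-REX than in DMSO at 3 h. It stood at 280, 274, 295 and 294 CPM in T-REX, 268, 263, 262 and 258 in light alone, 252, 260, 256 and 271 in probe alone, and 248, 237, 263 and 244 in DMSO. The T-REX libraries were above all 12 controls, and the log2 change was 0.21 ± 0.05 against DMSO (adjusted p = 0.012), 0.12 ± 0.05 against light alone (adjusted p = 0.22) and 0.15 ± 0.05 against probe alone (adjusted p = 0.088). RBM6, a relative of the exon-choice regulator RBM5, was 90.9, 79.7, 87.4 and 78.2 CPM in T-REX against 65.7, 75.6, 70.5 and 71.0 in DMSO (log2 change 0.25 ± 0.07, adjusted p = 0.034). In light alone RBM6 was 66.2 to 76.2, below T-REX, and in probe alone it was 67.3 to 85.9, which overlapped T-REX. RBM27, the paralog of RBM26, was 56.2, 53.6, 47.7 and 54.2 CPM in T-REX, 60.6, 61.8, 58.4 and 62.5 in light alone, 62.1, 65.0, 58.1 and 57.4 in probe alone, and 64.8, 63.7, 57.8 and 67.5 in DMSO. It was lower in T-REX than in every control library, with a log2 change of -0.26 ± 0.06 against DMSO (adjusted p = 0.016). Together with QKI and HNRNPF, RBM27 made 3 members whose T-REX libraries were all below the controls at 3 h (1.65% of all genes), and RBM33 was the 1 member above (0.388% of all genes). The RBM33 call was lost without DMSO replicate 2 (0.18, adjusted p = 0.055), that of RBM27 without DMSO replicate 1 or 4 (-0.25 and -0.24, adjusted p = 0.059 and 0.063), and that of RBM6 without T-REX replicate 1 or 3 or DMSO replicate 1, 2 or 4 (0.21 to 0.28, adjusted p = 0.055 to 0.12). The 7 calls against DMSO became 2 without DMSO replicate 1, 3 without DMSO replicate 2 and 3 without DMSO replicate 4, and only QKI was called with the 2 arms alone.

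At 6 h no member was called against any control by edgeR, with 0.218% of all genes called for light alone, 0.109% for probe alone and 0.415% for DMSO. The members at an unadjusted p under 0.05 numbered 11, 4 and 9, and DESeq2 called 1, 0 and 1. With a library left out, 1 member, HNRNPH1, was called against light alone without light alone replicate 4. Against DMSO 1 member, RBM38, was called without probe alone replicate 1 or DMSO replicate 2, and 2, RBM38 and HNRNPUL1, without DMSO replicate 4. No member was SDE, as were 0.136% of all genes. HNRNPR, a paralog of SYNCRIP, was the member whose T-REX libraries all lay below the controls (0.422% of all genes), at 334, 331, 335 and 322 CPM, with 352, 347, 407 and 336 in light alone, 370, 363, 368 and 365 in probe alone, and 358, 352, 338 and 361 in DMSO. It was named after its values were seen. The gap was small, since the highest T-REX library was at 335 and the lowest control at 336 CPM. No member lay above the controls (0.388% of all genes). HNRNPF, HNRNPH1 and HNRNPH2 again had negative changes against all 3 controls, from -0.06 to -0.28. They had no call by edgeR on all 16 libraries with the arm as the only term. With the factors of unwanted variation as covariates, HNRNPF and HNRNPH1 were called against light alone. HNRNPH1 was called against light alone by DESeq2 and without light alone replicate 4, and HNRNPH2 against probe alone with only these 2 arms in the fit. RBM33 was 257, 230, 234 and 260.5 CPM in T-REX, 209 to 223 in light alone, 244 to 275 in probe alone and 233 to 251 in DMSO, so that it was above light alone and overlapped the other 2 controls.

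At 12 h against DMSO, 16 of the 55 members (29.1%) were called, 5 higher and 11 lower. Of all genes, 10.9% were called in this comparison, 4.09% higher and 6.79% lower. All 8 calls among the 21 hnRNP genes were lower in T-REX, whereas the 33 RBM genes held 5 higher and 2 lower calls, and QKI was lower. The median log2 change was -0.12 over the hnRNP genes, 0.002 over the RBM genes and 0.003 over all genes. The same members against the other controls gave fewer calls. The median over the hnRNP genes was -0.074 against light alone, with 16 of 21 changes negative. It was -0.103 against probe alone, with 19 of 21 negative, and against DMSO 17 of 21 were negative. Over the RBM genes the median was -0.008 against light alone and -0.014 against probe alone. These comparisons share the T-REX libraries. Against light alone the only call was RBM8A (1.29% of all genes), with 7 members at an unadjusted p under 0.05, and against probe alone there was none (0.701% of all genes) by edgeR, with 10 at an unadjusted p under 0.05 and 0 by DESeq2. The 16 calls against DMSO became 7, 8 and 9 without T-REX replicates 1, 3 and 4, 10 without DMSO replicate 2 and 10 without DMSO replicate 3, and 3 with only the 2 arms in the fit, which also gave 7 calls against light alone. Against light alone the 1 call became 0 without T-REX replicate 1 or light alone replicate 3, 2 without DMSO replicate 1 and 4 without DMSO replicate 3. Against probe alone the count became 3 without probe alone replicate 4 and 1 without DMSO replicate 3. NCBP1 and the nuclear RNAs took larger shares of the counts in T-REX and probe alone than in light alone and DMSO at this time, and their part in these calls was not tested.

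**Figure D3:**
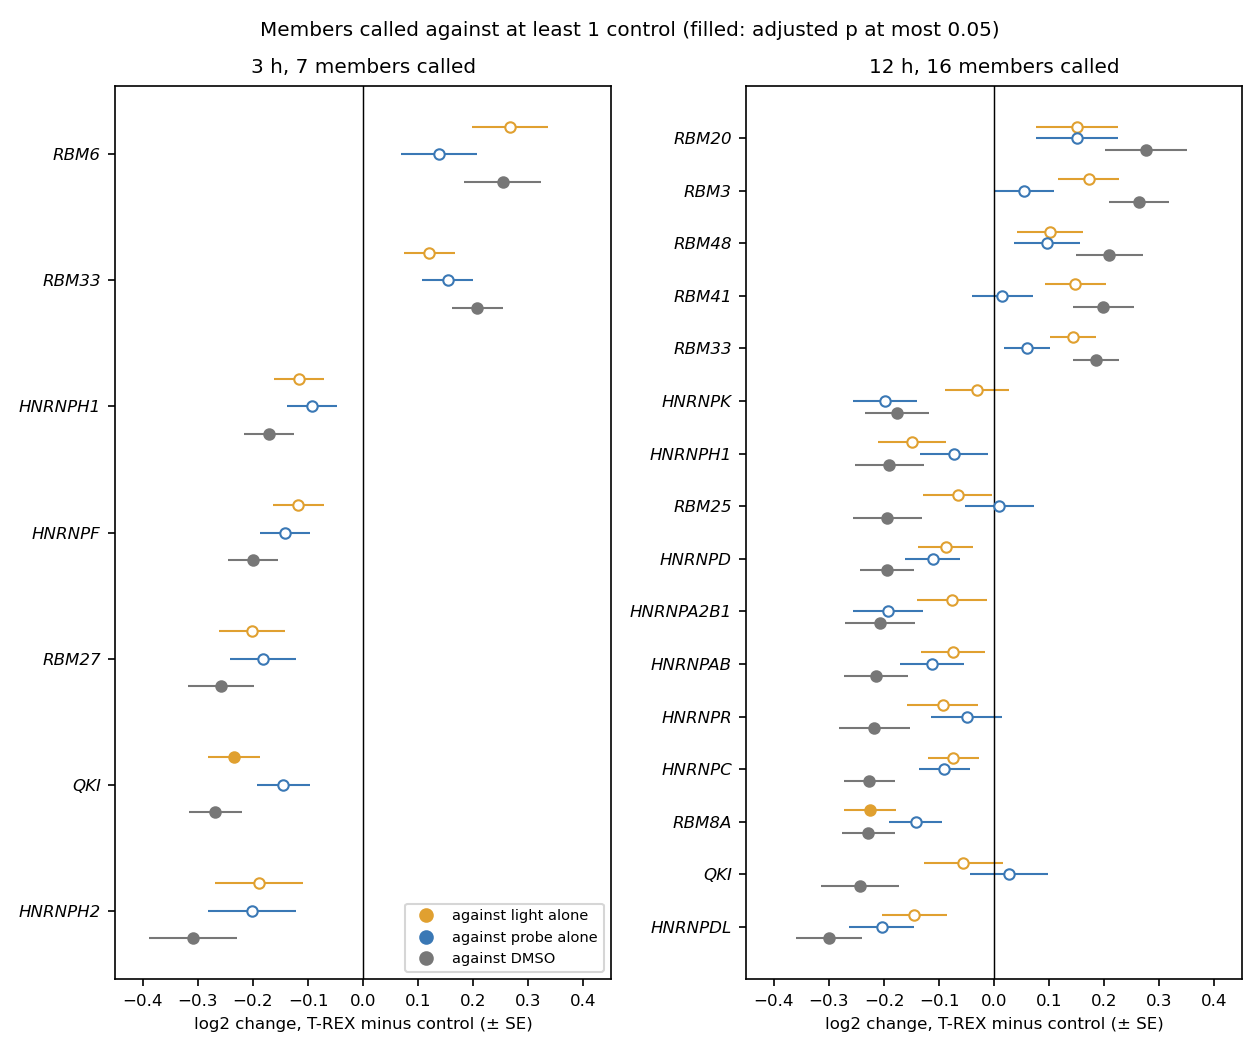
Log2 change of T-REX against light alone, probe alone and DMSO (colors), with the SE as bars, for the 7 members called at 3 h and the 16 called at 12 h against at least 1 control; filled points have an adjusted p of at most 0.05. The changes against DMSO run from -0.31 to 0.28. In this edgeR fit, with the arm as the only term, QKI at 3 h and RBM8A at 12 h are the members with a call against a second control.

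The lower hnRNPs at 12 h were led by HNRNPDL, a paralog of the AU-rich element binder HNRNPD. It was 227, 241, 235 and 222 CPM in T-REX, 258, 252, 267 and 247 in light alone, 282, 248, 298 and 236 in probe alone, and 295, 296, 279 and 268 in DMSO. T-REX lay below light alone and DMSO and overlapped probe alone in 1 library, with log2 changes of -0.14, -0.20 and -0.30 ± 0.06 (adjusted p against DMSO = 0.0024). HNRNPC was 818, 814, 808 and 811 CPM in T-REX, 838, 873, 839 and 879 in light alone, 874, 846, 876 and 858 in probe alone, and 950, 944, 1028 and 879 in DMSO. Its T-REX libraries were below all 12 controls, as were those of RBM8A (1.17% of all genes), and the log2 change was -0.23 ± 0.05 against DMSO (adjusted p = 0.0025) and -0.07 and -0.09 against light alone and probe alone. The calls on HNRNPDL and HNRNPC against DMSO were kept without any 1 library. The other 6 were HNRNPAB, HNRNPD, HNRNPR, HNRNPA2B1, HNRNPH1 and HNRNPK, at -0.18 to -0.22 against DMSO, with adjusted p between 0.013 and 0.050. Calls on them were lost without 1 library in 1 of 16 fits for HNRNPD (T-REX replicate 4, adjusted p = 0.051), 3 for HNRNPAB (T-REX replicate 1 or 4 or DMSO replicate 1, 0.061 to 0.086), 4 for HNRNPR (T-REX replicate 2, 3 or 4 or DMSO replicate 3, 0.054 to 0.098) and 7 for HNRNPA2B1 (T-REX replicate 1, 3 or 4, probe alone replicate 2 or DMSO replicate 1, 2 or 3, 0.050 to 0.13). The HNRNPH1 call was kept only without probe alone replicate 4 or DMSO replicate 1 or 4, and that of HNRNPK only without T-REX replicate 2, probe alone replicate 3 or 4 or DMSO replicate 4 (otherwise 0.058 to 0.14). Without DMSO replicate 3 the changes of HNRNPR, HNRNPA2B1, HNRNPH1 and HNRNPK were -0.12, -0.16, -0.12 and -0.14. By role, 4 of 8 of the A, B and D type, 2 of 4 of the C, K and L type, 1 of 4 of the F and H type and 1 of 5 of the M, R and U type were called lower, beside 6.79% of all genes.

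The RBM genes higher in T-REX than in DMSO at 12 h were RBM3, RBM20, RBM33, RBM41 and RBM48. RBM3 was 229, 236, 224 and 218 CPM in T-REX, 190, 201, 196 and 220 in light alone, 225, 220, 228 and 197 in probe alone, and 185, 197, 174 and 199 in DMSO. It was above every DMSO library and overlapped probe alone, and the log2 changes were 0.17 ± 0.05, 0.05 ± 0.06 and 0.26 ± 0.06 for light alone, probe alone and DMSO (adjusted p against DMSO = 0.0034). RBM33 was 255, 249, 246 and 256 CPM in T-REX, 220, 233, 229 and 231 in light alone, 245, 238, 235 and 246 in probe alone, and 215, 218, 221 and 230 in DMSO. It was the only member above all 12 controls at 12 h (0.899% of all genes), though its lowest T-REX library and the highest probe alone library both stood at 246 CPM, and its change was 0.19 ± 0.04 against DMSO (adjusted p = 0.0058). RBM20, a splicing regulator of titin in muscle, was 55.6, 56.2, 56.8 and 49.5 CPM in T-REX and 45.6, 43.3, 38.2 and 52.7 in DMSO, which overlapped (0.28 ± 0.07, adjusted p = 0.020), with 47.6 to 52.8 in light alone and 46.5 to 51.7 in probe alone. RBM41 and RBM48, proteins of minor-intron splicing, changed by 0.20 ± 0.06 and 0.21 ± 0.06 (adjusted p = 0.023 and 0.027). The calls on RBM3 and RBM33 were kept without any 1 library. Those of RBM20, RBM41 and RBM48 did not hold without T-REX replicate 1 (adjusted p = 0.060 to 0.10), without T-REX replicate 3 for RBM20 and RBM41, without DMSO replicate 2 for both of these, without DMSO replicate 1 for RBM41, and without T-REX replicate 2 or DMSO replicate 3 for RBM48 (0.052 to 0.077). The RBM genes lower were RBM8A and RBM25, a U1 snRNP-associated factor (-0.19 ± 0.06, adjusted p = 0.046), which kept its call only without T-REX replicate 2 or DMSO replicate 1 or 4 and changed by -0.10 without DMSO replicate 3. Its call was also lost by limma-trend on the deposited log2 CPM (adjusted p = 0.054) and with only the 2 arms in the fit (adjusted p = 0.19).

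**Figure D4:**
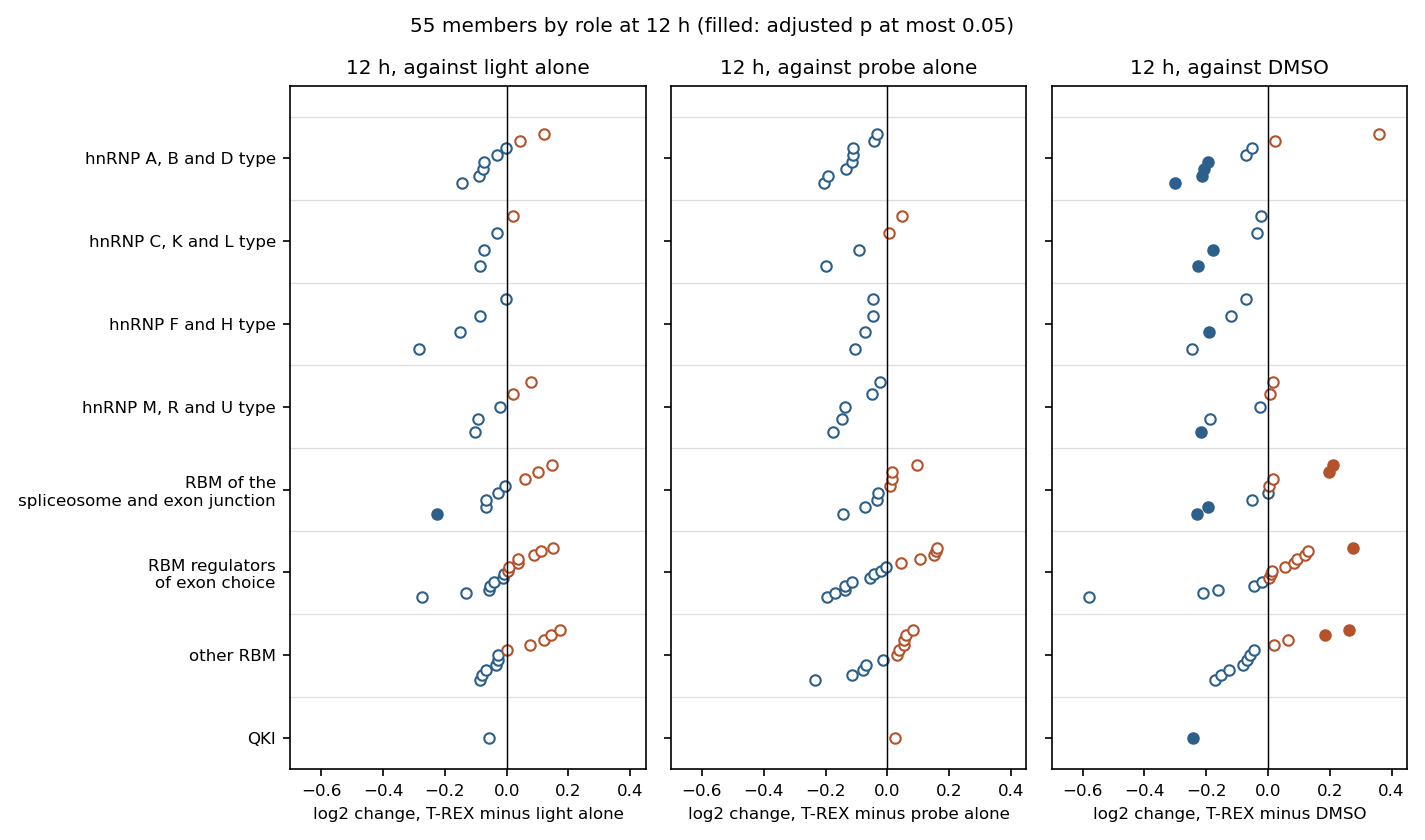
Log2 change of T-REX against each control at 12 h for the 55 members, 1 point per member, in rows by role; filled points have an adjusted p of at most 0.05, blue is lower and orange higher in T-REX. Against DMSO the 8 called hnRNP genes are all lower and 5 of the 7 called RBM genes are higher, and against the other controls RBM8A is the only call.

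The controls were compared with each other in the same way. No member was called between controls at 3 h (0.232% of all genes called at least once) or 6 h (0.0749%) by edgeR. Over the 3 comparisons, 3 to 9 members at 3 h and 3 to 10 at 6 h had an unadjusted p under 0.05, and DESeq2 called at most 1 and at most 2. At 12 h, 3 members were called in at least 1 comparison (5.26% of all genes), all in probe alone against DMSO (5.11% of all genes). These were QKI (-0.27 ± 0.07, adjusted p = 0.030), RBM3 (0.21 ± 0.06, adjusted p = 0.028) and RBM6 (0.24 ± 0.07, adjusted p = 0.038). With only these 2 arms in the fit none of the 3 was called (adjusted p = 0.17 to 0.19). RBM6 was 75.6, 64.3, 71.4 and 69.1 CPM in probe alone and 60.0, 60.8, 51.3 and 64.9 in DMSO, while T-REX at 60.4, 70.8, 67.1 and 61.3 overlapped both and light alone was 57.0 to 61.5. Against the same DMSO libraries, T-REX gave -0.24 for QKI, 0.26 for RBM3 and 0.13 for RBM6, and both sets of values share that control. The members called became 0 without probe alone replicate 1, 1 without replicate 2 or 3, and 9 without DMSO replicate 1 or 4. RBM6 was also not called without light alone replicate 1, probe alone replicate 4 or DMSO replicate 2 or 3 (0.18 to 0.25, adjusted p = 0.052 to 0.096). At 3 h, 1 member was called when T-REX replicate 1, 3 or 4 or probe alone replicate 4 was left out. With factors of unwanted variation as covariates, light alone against DMSO at 12 h gave 9 calls, all lower. These were HNRNPA2B1, HNRNPAB, HNRNPC, HNRNPD, HNRNPDL, HNRNPK, HNRNPR, QKI and RBM25, each also called lower in T-REX against DMSO. Probe alone against DMSO then gave 14 calls, 6 higher and 8 lower.

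Between times, the effect of T-REX was not shown to differ for any member. No member was called in the comparison of the T-REX effect at 6 h with that at 3 h (0% of all genes) or at 12 h with that at 3 h (0.116% of all genes) by edgeR, with 3 and 10 members at an unadjusted p under 0.05 and 0 and 0 called by DESeq2. At 12 h 1 was called without T-REX replicate 4 of 3 h. The smallest adjusted p at 12 h was that of HNRNPDL, with -0.26 ± 0.07 (adjusted p = 0.094), whose change was 0.12, -0.04 and 0.08 for light alone, probe alone and DMSO at 3 h and -0.14, -0.20 and -0.30 at 12 h.

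More members were called between times in the controls, where each time had 12 libraries, than between arms, where each had 4. From 3 to 6 h, 30 of the 55 were called (54.5%, beside 41.5% of all genes), 10 higher (21.5% of all genes) and 20 lower (20% of all genes). From 3 to 12 h, 41 were called (74.5%, beside 60.9% of all genes), 7 higher (31.1% of all genes) and 34 lower (29.8% of all genes). The median log2 change at 12 h was -0.13 over the members and 0.002 over all genes. With RLE in place of TMM factors the split was 9 higher and 21 lower at 6 h and again 7 and 34 at 12 h. Time and any difference between the batches of libraries of each time cannot be told apart.

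RBM3 had the largest fall among the members. Its level over the 12 control libraries was 281 to 355 CPM at 3 h (median 334), 219 to 293 at 6 h (median 263) and 174 to 228 at 12 h (median 198), with a log2 change of -0.68 ± 0.04 at 12 h. The 12 h and 3 h libraries did not overlap. HNRNPAB fell from 178 to 216 CPM (median 188) to 121 to 156 CPM (median 131), by 0.54 ± 0.03 on the log2 scale. RBM28, a nucleolar factor of ribosome synthesis, fell from 240 to 269 CPM (median 256) to 166 to 192 CPM (median 182), by 0.49 ± 0.03. RBM8A fell from 189 to 228 CPM (median 214) to 140 to 162 CPM (median 153), by 0.48 ± 0.03. RBM12, a nuclear protein with several RNA-recognition motifs, fell from 200 to 230 CPM (median 212) to 154 to 171 CPM (median 161), by 0.41 ± 0.02. HNRNPDL was lowest at 6 h, at 224 to 267 CPM (median 238) against 318 to 403 (median 339) at 3 h and 236 to 298 (median 267) at 12 h. Its log2 changes were -0.54 ± 0.04 at 6 h and -0.38 ± 0.04 at 12 h.

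By role, all 8 RBM genes of the spliceosome and exon junction were lower at 12 h than at 3 h, as were 7 of the 8 hnRNPs of the A, B and D type, with HNRNPA2B1 higher by 0.10 ± 0.03, beside 29.8% of all genes called lower. Of the C, K and L type 3 of 4 were lower, and of the M, R and U type 3 of 5. Differences between roles were not tested. Of the F and H type, HNRNPH1 and HNRNPH3 were higher at 6 h (21.5% of all genes), by 0.16 and 0.20, and HNRNPF by 0.06, a call that was lost with RLE factors (0.05, adjusted p = 0.072), by DESeq2 (0.05, adjusted p = 0.061) and in 27 of 48 fits with a library left out. At 12 h HNRNPH3 was higher (0.12 ± 0.03) and HNRNPF lower (-0.07 ± 0.02). The largest called rises were those of 2 members near the bottom of the order of levels. RBM43 was 0.80 to 2.25 CPM at 3 h (median 1.43) and 1.78 to 4.57 at 12 h (median 2.91), a log2 change of 0.95 ± 0.15. RBM47, a cofactor of C-to-U editing, was 2.31 to 3.72 CPM at 3 h (median 3.20) and 4.21 to 5.96 at 12 h (median 5.03), which did not overlap, a change of 0.72 ± 0.08. RBM20 rose from a median of 39.7 to 48.1 CPM (0.27 ± 0.04), and QKI from 312 to 336 CPM (0.15 ± 0.04) with 2 control libraries, light alone replicate 3 at 6 h and DMSO replicate 3 at 12 h, at 453 and 470 CPM.

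**Figure D5:**
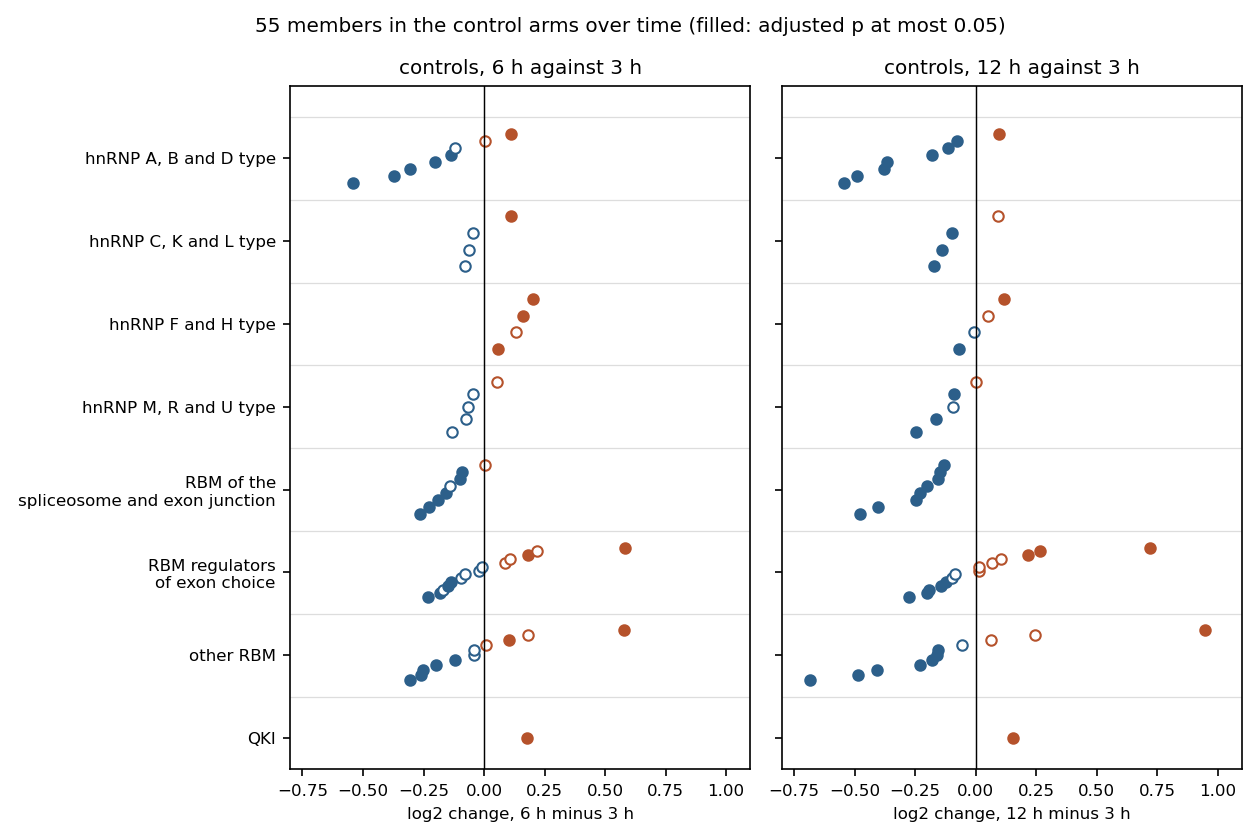
Log2 change of the 55 members in the controls at 6 h and 12 h against 3 h, 1 point per member, in rows by role; filled points have an adjusted p of at most 0.05, blue is lower and orange higher at the later time. At 12 h, 34 members are called lower and 7 higher, and all 8 spliceosome and exon junction RBM genes are lower.

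RBM38, a p53 target that binds AU-rich messages, had a wide spread between replicates within every arm but probe alone at 3 h. At 3 h it was 7.71, 10.4, 35.9 and 39.1 CPM in T-REX, 13.2, 48.1, 49.3 and 10.6 in light alone, 11.5, 10.4, 12.5 and 12.2 in probe alone, and 23.8, 11.6, 27.4 and 11.6 in DMSO. Its log2 changes of -0.39, 1.02 and 0.33 for light alone, probe alone and DMSO were not called. At 6 h it was 12.3, 14.7, 18.2 and 20.8 CPM in T-REX and 37.0, 23.1, 42.1 and 22.7 in DMSO, which did not overlap, with 14.6 to 18.5 in light alone and 15.2 to 23.3 in probe alone, and the change of -0.92 ± 0.21 against DMSO did not pass by edgeR (adjusted p = 0.071). It was called by DESeq2, and by edgeR without probe alone replicate 1, DMSO replicate 2 or DMSO replicate 4. It was named after its values were seen.

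Of 38 related RNA-binding splicing regulators outside the 3 families, 33 had a row in the tables. Against DMSO, 4 were called lower and 0 higher at 3 h (4.54% and 1.45% of all genes), and 9 lower and 1 higher at 12 h (6.79% and 4.09% of all genes), with median log2 changes of -0.02 and -0.07 over the 33. Against probe alone 1 was called lower at 3 h. At 12 h, 0 were called against light alone (1.29% of all genes) and 0 against probe alone (0.701%), with medians of -0.03 each. Between controls at 12 h, light alone against DMSO had a median of -0.06 over the 33 and 0 calls. Probe alone against DMSO had a median of -0.06, with 4 called lower and 2 higher (5.11% of all genes). These comparisons with DMSO share its libraries with T-REX against DMSO. In the controls over time, 6 were called higher and 11 lower at 6 h (21.5% and 20% of all genes), and 11 higher and 16 lower at 12 h (31.1% and 29.8% of all genes). TARDBP, which codes for TDP-43 and is itself an hnRNP-like protein of the nucleus, was SDE at 3 h. It was 100, 98.6, 102 and 81.6 CPM in T-REX, 110, 110, 101 and 113 in light alone, 120, 119, 115 and 111 in probe alone, and 126, 133, 125 and 126 in DMSO. T-REX overlapped light alone and lay below the other 2, with log2 changes of -0.18 ± 0.06, -0.27 ± 0.06 and -0.41 ± 0.06 (adjusted p = 0.15, 0.035 and 0.00078). The TARDBP call against probe alone did not hold when T-REX replicate 2 or 4 was left out, nor without probe alone replicate 1, 2 or 3, or DMSO replicate 1 (adjusted p = 0.050 to 0.12), nor with only the 2 arms in the fit (adjusted p = 0.20). At 12 h MALAT1 was SDE and higher by 0.26 against light alone and DMSO each.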

How the data were processed

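RNA-seq libraries of HEK293T cells were made, per the labels, with TruSeq stranded mRNA reagents from total RNA, and the study's methods give rRNA depletion and paired-end NovaSeq sequencing. The authors deposited raw counts per gene for each library, log2 CPM tables, and per-library factors of unwanted variation (RUV), a score that entered 1 alternative. Their RUV-transformed tables were not used. bcl2fastq is named in the submitters' processing notes. The study's software summary names cutadapt, tophat and cufflinks for its RNA-seq, without saying which made the count tables. The read counter, strand setting and genome build of the counts are not given in the sources used here, so no coordinates are printed. Exon lengths came from GENCODE 29, which held 14556 of the 14685 identifiers.

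Counts of the 16 libraries of a time were fitted together with edgeR 4.0.16 (R 4.3.3; TMM factors, filterByExpr, robust quasi-likelihood test) with the arm as the only term, and p-values were adjusted by Benjamini-Hochberg over all 14685 genes, with a call at 0.05. A fit of all 48 libraries gave the change of the T-REX effect with time and the controls over time. CPM values share 1 set of TMM factors over the 48 libraries. Errors of log2 changes are SE. DESeq2 1.42.0, limma 3.58.1 and other settings were alternatives. The fits were tested on simulated counts. The chi-square of replicate counts, over its degrees of freedom, was 3.15 to 46.5 in 72 pairs, so each library was kept as its own sample.

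Named were QKI, members significantly differentially expressed, the 3 members per direction with the smallest adjusted p in a comparison, those called between controls, the highest and lowest level in each role, and members with an outlying library. The others, namely the remaining members called at 3 h and 12 h and their paralogs, HNRNPR, HNRNPDL over time, HNRNPUL1, RBM22 and RBM38, were named after their values were seen. The members, roles and lists were chosen with earlier results of these data known. An item that meets the symbol rule was left out of the members, and it and another item are not reported here.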

Additional observations from a re-analysis of the deposited data

Results flagged for a closer look

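Of 84 groups of 4 libraries whose levels are given above, 5 held a library whose gap to the nearest other, over the range of the group, passed Dixon's 95% critical value for 4 values, and chance flags about 1 in 20 groups. QKI was at 470 CPM in DMSO replicate 3 at 12 h, with the others at 346 to 363. RBM33 was at 275 CPM in probe alone replicate 4 at 6 h, with the others at 244 to 247. HNRNPH1 was at 701 CPM in DMSO replicate 3 at 3 h, with the others at 795 to 805. RBM20 was at 49.5 CPM in T-REX replicate 4 at 12 h, with the others at 55.6 to 56.8, and at 52.8 CPM in light alone replicate 1 at 12 h, with the others at 47.6 to 48.3.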

How the results depend on the processing

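Counts of members called moved by over 1.5 times under some alternatives, and the cause was not tested. Against light alone, probe alone and DMSO at 3 h, DESeq2 called 3, 3 and 8, the factor correction for unwanted variation (RUV) 14, 12 and 17, and fits with only the 2 arms, which have fewer samples, 0, 0 and 1; with a mean of at least 100 counts 0 were called against light alone. At 6 h DESeq2 called 1, 0 and 1, RUV 9, 2 and 7, and the 2-arm fits 1 against probe alone. At 12 h DESeq2 called 3 against light alone, RUV 8, 9 and 23, and the 2-arm fits 7, 2 and 3. Members with calls of 1 sign against 2 or more controls numbered 4 at 3 h and 3 at 12 h by DESeq2, 14, 2 and 14 at 3, 6 and 12 h with RUV, 0 at 3 h and 3 at 12 h with 2 arms, and 0 at 3 h with a mean of at least 100 counts. Those by DESeq2 were HNRNPF, QKI, RBM33 and RBM6 at 3 h and HNRNPH2, RBM33 and RBM8A at 12 h. All of these also met the rule with RUV at the same time. Between controls DESeq2 called 1, 3 and 7, RUV 13, 11 and 22, the 2-arm fits 1 at 3 h and 5 at 12 h, these 5 all in light alone against probe alone, and the stricter count minimum 5 at 12 h.

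With 1 library left out, calls ranged from 0 to 2, 0 to 1 and 2 to 9 at 3 h against light alone, probe alone and DMSO, from 0 to 1, 0 to 0 and 0 to 2 at 6 h, and from 0 to 4, 0 to 3 and 7 to 20 at 12 h. Members called against at least 2 controls ranged from 0 to 1, 0 to 0 and 0 to 4 at 3, 6 and 12 h, calls between controls from 0 to 1, 0 to 0 and 0 to 9, calls on the change of the T-REX effect from 0 to 0 at 6 h and 0 to 1 at 12 h, and calls over time from 27 to 33 and 40 to 43.

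Same-numbered libraries did not deviate together throughout (72 pairs, r from -0.65 to 0.58, 30 over 0.1). At 6 h, r for replicates 1 to 4 was 0.47, 0.25, 0.10 and 0.37 between T-REX and probe alone. Between T-REX and DMSO it was -0.03, 0.12, -0.12 and -0.34. A pairing of some arms by number was therefore neither shown nor excluded, and the main fits have no block. With a replicate block, 2 members were called against light alone at 3 h, 9 and 15 against DMSO at 3 h and 12 h, and 1 between controls at 12 h. The block ended the calls on RBM25 in T-REX against DMSO at 12 h (adjusted p = 0.058) and on QKI and RBM6 in probe alone against DMSO at 12 h (0.050 and 0.061). Of the single-member results, none reversed, 220 values lost and 8 gained a call, and 4685 did neither. This tally pools the calls of the controls over time, each with 48 fits without 1 library, with those of T-REX against a control. It is therefore no measure of how stable the T-REX calls were. The calls against DMSO at 12 h were kept in 3 (RBM25, HNRNPH1) to 16 (such as HNRNPC) of 16 such fits. RUV was not run for the fits over time.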
